A study of Homo sapiens with 28 samples.

Results

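The synaptotagmins, syntaxins, syntaxin-binding proteins, VAMPs and SNAPs were followed as a family in SK-N-AS, an established human neuroblastoma cell line. The members were taken by gene symbol: SYT, STX, STXBP and VAMP followed by a number, with SNAP25, SNAP23, SNAP29, SYP, SYN1 and SYN2 added. This gave 51 of the 19775 genes with a probe set that names a single gene, namely 16 synaptotagmins, 15 syntaxins, 7 syntaxin-binding genes, 7 VAMPs, 3 SNAPs and 3 other vesicle proteins. Each gene was read by its brightest probe set. Of the 51 members, 36 reached the mean signal needed for testing (12.8 on the deposited scale, over all arrays) and 15 did not.

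The MYCN line is SK-N-AS carrying a MYCN transgene that doxycycline switches on, with 3 arrays at each of 7 times after the drug, labelled 0, 4, 8, 24, 48, 96 and 192 without a unit. The mock line is SK-N-AS carrying pcDNA6TR, labelled mock; it went through the same course, with a single array at each time. Doxycycline was given to both lines, and time 0 is the start of the course. Both lines share the parent line and its medium with fetal calf serum. The labels leave unsaid whether either line is a single clone and whether replicates are separate cultures; p-values here therefore reflect the variation among these arrays, which may be technical.

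Vesicle fusion runs on SNARE proteins. A VAMP on the vesicle winds together with a syntaxin and a SNAP on the target membrane and pulls the membranes into contact, and each compartment of the cell uses its own set. Synaptotagmins are vesicle proteins with paired C2 domains, several of which bind calcium and couple it to fusion, while syntaxin-binding proteins hold or release the syntaxins. Neuroblasts of the sympathetic lineage store catecholamines and peptides in dense-core vesicles that are released by this machinery.

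The labels of the lines matched the transgene. In the MYCN line MYCN read 3193 ± 112 at time 192, against 84.0 ± 17.5 at time 0 (SD, n = 3 each), and the mock arrays read 1.6 to 3.0. The median signal of an array lay between 12.9 and 20.2. Spiked hybridisation controls split the arrays into sets. A bioD control read 1544 to 1941 in the MYCN line's replicates 1 and 2, while its replicate 3 shared a range of 2322 to 2770 with the mock arrays. Of 11 noradrenergic neuroblast markers 9 were measured and 6 passed the filter on dim genes. Of these 6, PHOX2A passed through the mock arrays (1.2 to 15.4 in the MYCN line, 582 to 1133 in the mock line). TH and DBH, the catecholamine enzymes, stayed at or under 8.7 in all arrays. At time 192 limma called the noradrenergic markers GATA2 (0.84) and GATA3 (0.39) higher, and ISL1 (-0.43) and CHGA (-3.06, adjusted p = 0.0398) lower. CHGA, which encodes the dense-core granule protein chromogranin A, read 1.5 to 132.9 in the MYCN line and 67.3 to 313 in the mock line. All 7 mesenchymal markers passed the filter, with CD44 called higher and FN1, PRRX1 and TWIST1 lower at time 192, and their summed signal was 9214 to 9908 at time 192, against 10910 to 12110 at time 0, and 8503 to 9750 in the mock line. The part of these markers in the members' changes was not tested. Fewer cells of a type and less RNA per cell cannot be told apart in such bulk samples.

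In the MYCN line the synaptotagmins SYT9, SYT11, SYT1 and SYT12 fell, as did VAMP5, the tomosyn gene STXBP5 and SNAP25, while the plasma membrane syntaxins STX1A and STX3 rose. At time 192 these were 9 of the 36 tested members (25%), 2 higher and 7 lower, at a limma p adjusted over the 11865 genes tested of under 0.05. The background was 25.8% of all tested genes called, 11.6% higher and 14.1% lower, so the count over the whole family was near that of the transcriptome. By subfamily, 4 of 8 tested synaptotagmins, 1 of 6 VAMPs, 1 of 5 syntaxin-binding genes and 1 of 3 SNAPs fell, and 2 of 13 syntaxins rose. SYT9, SYT4 and SYN2 are among the tested members only through the mock arrays. Their mean log2 signals over the MYCN line were 3.32, 2.69 and 3.45, under the 3.68 required. SYT9 is counted in the 9 called, the 7 lower and the 4 of 8, and nothing is read from its place there. The median log2 change of the tested members was -0.08 at time 192, against -0.03 over all genes. These calls were not equally firm. Only those of STX1A and SYT1 held under all alternatives that measured them. The call ended in 10 of 20 alternatives for SNAP25, in 11 of 20 for STX3 and in 9 of 18 for SYT12.

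The calls accumulated late. At times 4 and 8 limma called 0 members, against a background of 0.00843% and 0.767% of all genes (at time 8, 0.59% higher and 0.177% lower). Before adjustment, 3 and 4 of the 36 members had a p under 0.05, against 778 and 1187 of the 11865 genes. At time 24 it called 2 members, both lower, against a background of 7.18% (3.91% higher and 3.27% lower). At time 48 it called 7, of which 6 were lower and 1 higher, against a background of 14.7% (7.67% lower and 7.04% higher). At time 96 it called 8, of which 7 were lower and 1 higher, against a background of 23.4% (13.2% lower and 10.3% higher). Single replicates carried some of these counts. Without replicate 2 they were 0 at time 24, 1 at time 48 and 4 at time 96, and without replicate 1 they were 1 at time 24, 2 at time 48 and 5 at time 192. Leaving out single arrays (replicate 1 or 2 of time 0, or 2 or 3 of time 24) gave 1 at time 24, and at time 48 the count was 4 without replicate 2 of time 0 or replicate 1 of time 48, and 2 without replicate 2 of time 48. The counts of times 48 and 96 include SYT9, which passed the filter on dim genes through the mock arrays. All time contrasts share the arrays of time 0.

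**Figure D1:**
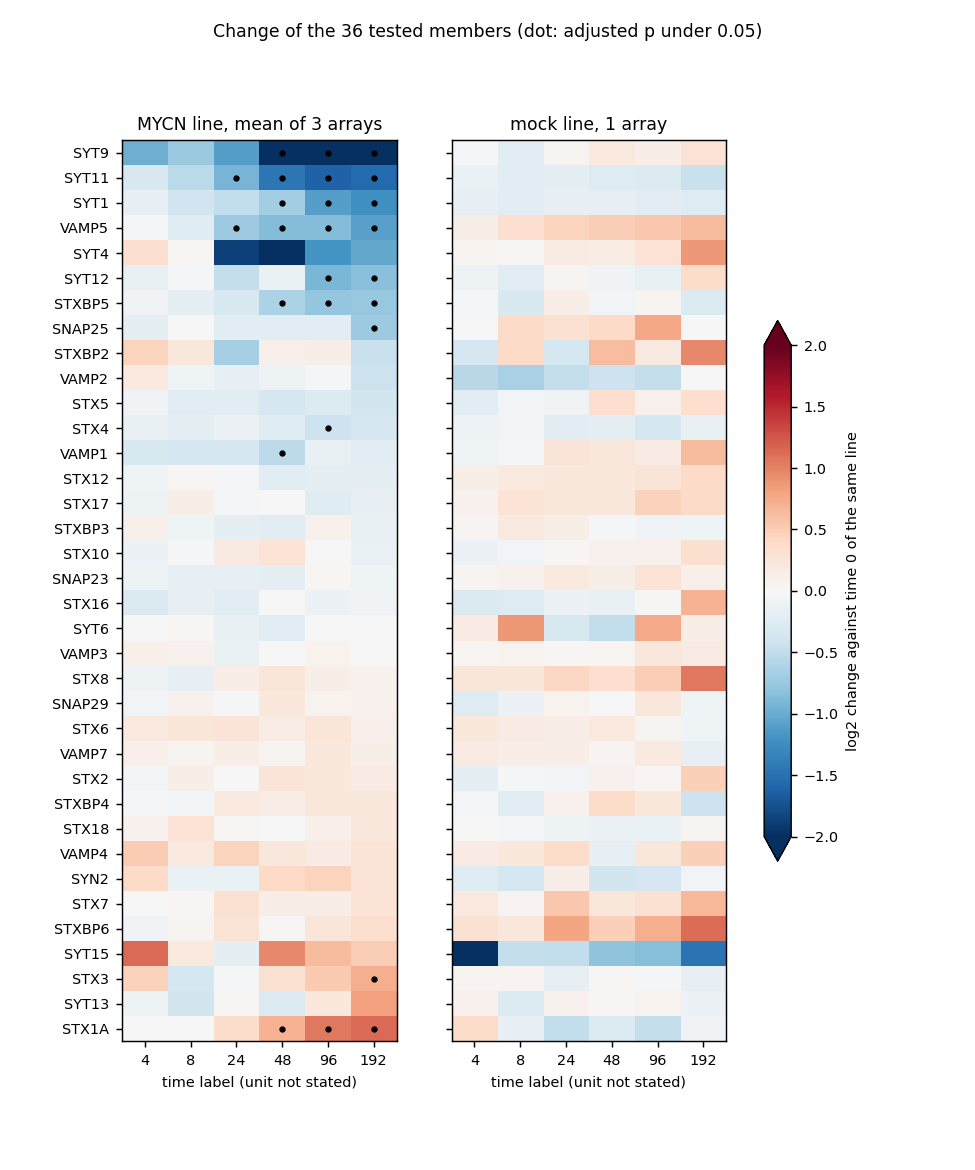
Log2 change of the 36 tested members against time 0 of the same line, in the MYCN line (left, mean of 3 arrays) and in the mock line (right, 1 array), by time label; black dots mark limma adjusted p under 0.05. Members are ordered by the change at time 192, from SYT9 (-4.83) to STX1A (1.14); colours end at 2 in either direction, and SYT4, SYT15 and SYN2 were dim in the MYCN line.

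The change map shows where the calls lie. Dots gather in the top rows, from SYT9 down to SNAP25, among which SYT4 has none. At the foot they lie in the STX1A row and, at time 192, in the STX3 row, while SYT13 has none. Between these, STX4 has a dot at time 96 and VAMP1 at time 48, and the other members have none. Promoter windows of a few members follow, since the induced gene encodes a DNA-binding transcription factor. MYCN and MAX bind E-boxes, of which CACGTG and CATGTG (read on both strands; CATGTG reads CACATG on the other) were searched in windows from 250 bases before to 50 after each gene's start (RefSeq, GRCh38.p14). Of the 51 members 43 had a window, and of the 9 called at time 192 the windows of 7 were given. In 0 of these 7 did either motif occur. Of all 43, CACGTG occurred in 6 and CATGTG in 3, against 7.26% and 11.1% of 35116 windows in all. No match says only that these letters are not in this window.
The windows shown are of the most lowered synaptotagmins, of the syntaxin that rose most, and, for comparison, of the SNAP29 gene, whose window holds CACGTG from base -184 and which was not called at any time, and of SYT4, which differed most between the lines. Capitals mark the motifs, and each runs 5′ to 3′ along the gene's strand.
SYT9 (chr11:7251654-7251953, plus strand): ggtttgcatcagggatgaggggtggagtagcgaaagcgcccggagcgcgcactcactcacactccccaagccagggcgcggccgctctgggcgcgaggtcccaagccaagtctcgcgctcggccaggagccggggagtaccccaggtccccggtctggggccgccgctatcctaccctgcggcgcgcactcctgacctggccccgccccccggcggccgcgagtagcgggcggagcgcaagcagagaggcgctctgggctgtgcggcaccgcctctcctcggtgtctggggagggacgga
SYT11 (chr1:155859317-155859616, plus strand): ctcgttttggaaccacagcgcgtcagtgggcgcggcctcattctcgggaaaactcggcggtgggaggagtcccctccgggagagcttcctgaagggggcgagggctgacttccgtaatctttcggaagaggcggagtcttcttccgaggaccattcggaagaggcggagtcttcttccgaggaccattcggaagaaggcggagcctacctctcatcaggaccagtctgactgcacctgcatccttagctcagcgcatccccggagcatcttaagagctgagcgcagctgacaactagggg
STX1A (chr7:73719620-73719919, minus strand): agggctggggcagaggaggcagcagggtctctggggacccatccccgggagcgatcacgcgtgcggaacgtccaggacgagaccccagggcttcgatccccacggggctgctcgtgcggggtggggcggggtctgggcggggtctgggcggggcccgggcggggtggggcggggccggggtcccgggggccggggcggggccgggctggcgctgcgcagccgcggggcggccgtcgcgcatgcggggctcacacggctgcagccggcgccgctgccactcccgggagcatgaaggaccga
SNAP29 (chr22:20858757-20859056, plus strand): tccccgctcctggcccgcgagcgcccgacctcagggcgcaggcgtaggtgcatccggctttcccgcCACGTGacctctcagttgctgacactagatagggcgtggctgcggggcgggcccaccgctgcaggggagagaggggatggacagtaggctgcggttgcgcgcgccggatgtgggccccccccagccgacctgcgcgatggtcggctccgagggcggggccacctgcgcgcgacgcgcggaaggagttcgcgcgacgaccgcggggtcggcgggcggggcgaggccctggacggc
SYT4 (chr18:43277441-43277740, minus strand): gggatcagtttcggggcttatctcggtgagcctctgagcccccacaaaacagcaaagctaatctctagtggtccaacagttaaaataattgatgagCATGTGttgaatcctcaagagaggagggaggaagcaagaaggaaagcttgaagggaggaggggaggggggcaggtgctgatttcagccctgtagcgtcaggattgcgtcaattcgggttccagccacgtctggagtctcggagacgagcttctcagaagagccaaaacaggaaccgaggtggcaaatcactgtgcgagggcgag

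Among the calcium sensors, SYT1, the sensor of fast synchronous transmitter release, read 78.9, 92.1 and 79.0 in replicates 1 to 3 at time 192, against 172, 215 and 198 at time 0. The groups did not overlap. SYT1 had fallen by 1.23 on the log2 scale (SE 0.20, limma adjusted p = 2.14e-04), to 0.428 of its signal at time 0. The fall passed the test from time 48 (-0.70, adjusted p = 0.0276) through time 96 (-1.10). At time 48 replicate 3 read 172, against 95.1 and 106 in the others, so the arrays of that time were spread widely. The mock arrays read 585 to 700, with a change of -0.26 at time 192. A second SYT1 probe set gave a change of -1.28 at time 192.

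SYT9, a calcium sensor related to SYT1, read 0.7, 1.0 and 6.2 at time 192, against 35.5, 45.5 and 61.9 at time 0. All arrays of times 96 and 192 lay at or under 6.2, where the filter on mean signal was 12.8, so the size of the fall (-4.83, SE 0.94, adjusted p = 8.23e-04) is uncertain. SYT9 passed that filter through the mock arrays. At time 24 the arrays still read 19.0 to 27.7 (-1.10, not called). At time 48 they read 0.8, 1.9 and 26.8, with replicate 3 near its earlier level, and the change was called (-3.75, adjusted p = 0.0108). The mock line held 123 to 176 throughout, highest at time 192. Of the other 3 probe sets of SYT9, 2 were lower at time 192 (-3.0 and -2.24) and 1 was higher (0.53) at signals near the filter. Without replicate 2 the change was -4.49 and the call ended (adjusted p = 0.0628). Over the alternatives other than leaving out replicates or single arrays, the change ran from -5.59 to -1.76.

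SYT11, a synaptotagmin that does not act as a calcium sensor and is found on vesicles of neurons and other cells, was the synaptotagmin called first. It read 42.2, 57.5 and 72.8 at time 192, against 178, 174 and 145 at time 0, with no overlap. Its log2 change was -0.93 at time 24 (SE 0.23, adjusted p = 0.0182), -1.45 at time 48, -1.62 at time 96 and -1.55 at time 192 (adjusted p = 7.83e-05). The arrays of time 8 (115, 115 and 110) lay between the levels of times 0 and 192, with a change of -0.54. Those of time 4 (126, 145 and 124) overlapped time 0, with a change of -0.32. Neither change was called. The mock line read 248 at time 192, against 336 at time 0 (-0.44), and its trend was not called. A second bright probe set gave -0.89 and a dim one (signals of 2.53 and 6.47 at times 0 and 192) gave 0.30; with the mean of the probe sets the change was -0.71 and the call ended (adjusted p = 0.157).

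SYT12, which lacks calcium-binding residues, read 13.5, 23.0 and 16.5 at time 192, against 30.4, 32.0 and 30.3 at time 0. The change was -0.84 (SE 0.26, adjusted p = 0.0219), and at time 96 it was -0.91. The call at time 192 ended with no filter (adjusted p = 0.0533) and without replicate 1 (-0.68, adjusted p = 0.189), replicate 2 (-1.02, adjusted p = 0.0778) or replicate 3 (-0.82, adjusted p = 0.0937). The mock array of time 192 read 44.2, its highest. Other probe sets of SYT12 gave 0.42 and 0.22 at time 192. These were dim, with mean signals of 4.77 and 3.17 at time 0 and 6.5 and 3.8 at time 192.

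The other 4 tested synaptotagmins were dim in the MYCN line and not called. SYT13 had a change of 0.82 at time 192 (SE 0.46), SYT15 of 0.49 (SE 0.70), SYT6 of -0.01 (SE 0.41) and SYT4 of -1.03 (SE 0.93). Their arrays read 17.6 to 30.3, 6.2 to 44.5, 13.4 to 15.6 and 1.7 to 10.5 at that time, so these errors are those of signals near the filter. The 8 untested synaptotagmins were SYT2, SYT3, SYT5, SYT7, SYT8, SYT14, SYT16 and SYT17.

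**Figure D2:**
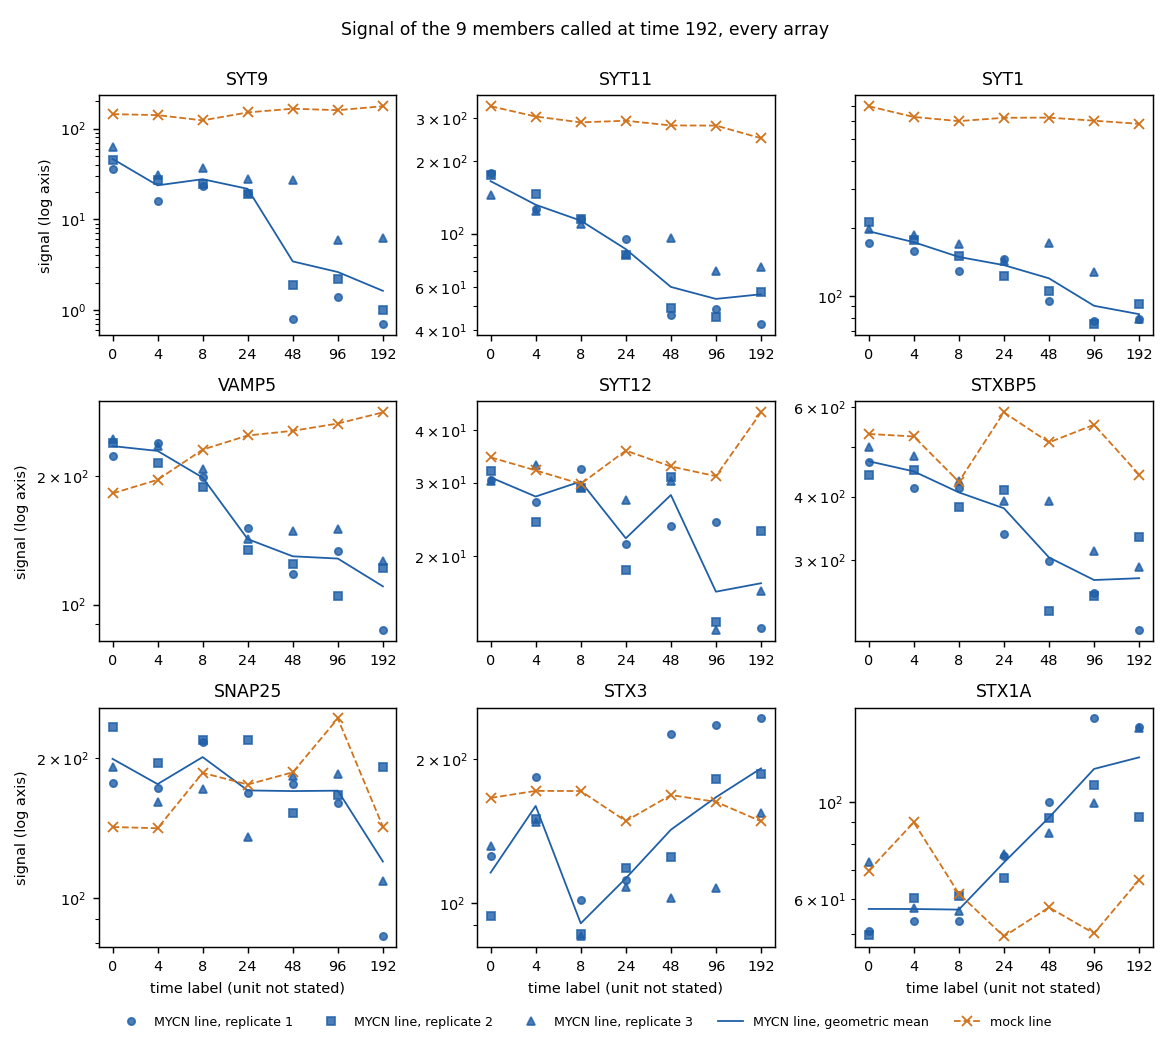
Signal (log axis) by time label for the 9 members called at time 192, ordered by their change, with blue symbols for the 3 replicates of the MYCN line, a blue line for their geometric mean and orange crosses for the single mock arrays. SYT9, SYT11 and SYT1 lie below the mock line at all times, VAMP5 lies above it at times 0 and 4 and below it from time 8, and STX1A lies above it at times 24 to 192.

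Among the syntaxins of the plasma membrane STX1A rose, STX3 rose at the edge of the threshold, STX4 fell at time 96, and STX2 was not called. STX1A, the neuronal syntaxin that pairs with SNAP25, read 148, 92.2 and 147 at time 192, against 50.9, 49.9 and 73.1 at time 0, with no overlap. It had risen by 1.14 (SE 0.19, limma adjusted p = 2.38e-04), or 2.21-fold. At time 48 the change was 0.69 (adjusted p = 0.0213) and at time 96 it was 1.06. In the mock line STX1A read 49.4 to 89.8, and its change was -0.28, -0.47 and -0.07 at these times. STX1A was measured by a single probe set, of the kind (_s_at) that can match several transcripts.

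STX3, a syntaxin of apical membranes and ribbon synapses, read 243, 187 and 154 at time 192, against 126, 93.7 and 132 at time 0. The change of 0.73 (SE 0.26) lay at the threshold (limma adjusted p = 0.04996). STX3 had no steady course: at time 8 its arrays read 85.0 to 101 (-0.35), below those of time 4 (147 to 184, 0.46). The call ended without replicate 1 (0.61, adjusted p = 0.1204), without replicate 2 (0.59, adjusted p = 0.388), without any 1 array of time 0 (0.57 to 0.82) and without replicate 1 or 2 of time 192 (0.55 and 0.74). It also ended with no filter (0.73, adjusted p = 0.0733), with equal array medians (0.75, adjusted p = 0.136), with the mean of its probe sets (0.44, adjusted p = 0.249) and when _s_at and _x_at probe sets were left out (0.73, adjusted p = 0.0557). Its other probe sets gave 0.46 and 0.13.

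STX4, the ubiquitous plasma membrane syntaxin, passed the test at time 96 alone, with 232, 197 and 250 against 261, 288 and 352 at time 0 (-0.41, SE 0.13, adjusted p = 0.0251). The mock array of time 96 moved almost as far (-0.35). At time 192 the change was -0.33 (adjusted p = 0.0627), and with the replicate number as a block it was called (adjusted p = 0.0118). The syntaxins of the Golgi, endosome and endoplasmic reticulum were not called at any time. They include STX5 (-0.37 at time 192), STX6 (0.10), STX7 (0.28), STX8 (0.08), STX10 (-0.13), STX12 (-0.18), STX16 (-0.07) and STX18 (0.21). STX17, the autophagosomal syntaxin (-0.16), and the plasma membrane syntaxin STX2 (0.17) were not called either. STX11 and STX19 were too dim to test.

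Among syntaxin-binding genes, STXBP5 encodes tomosyn, which competes with VAMPs for the syntaxin and SNAP partners. STXBP5 read 218, 333 and 291 at time 192, against 467, 442 and 501 at time 0. The groups did not overlap, and the change was -0.63 at time 48, -0.78 at time 96 and -0.76 at time 192 (SE 0.16, limma adjusted p = 0.00138), or 0.589 of the signal at time 0. The mock array of time 192 read 442, against 531 at time 0 (-0.27). Without replicate 1 the call at time 192 ended (-0.60, adjusted p = 0.0696), as it did with the mean of 3 probe sets (-0.36, adjusted p = 0.2799), since the others changed by -0.08 and -0.24. STXBP2 (-0.45, SE 0.35), STXBP3 (-0.15), STXBP4 (0.21) and STXBP6 (0.34) were not called. STXBP5L was too dim to test, as was STXBP5-AS1, an antisense transcript that the symbol rule also takes.

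VAMP5, a VAMP first described in muscle and found at the plasma membrane, had the smallest p of the family. It read 87.1, 122 and 126 at time 192, against 222, 239 and 243 at time 0. It had fallen by 0.72 on the log2 scale at time 24 (SE 0.14, limma adjusted p = 0.00393), by 0.86 at time 48, by 0.87 at time 96 and by 1.09 at time 192 (adjusted p = 2.31e-05). The mock line moved the other way, with 182 at time 0, 248 at time 24 and 281 at time 192 (0.63). VAMP5 was the 1 member whose trend in the mock line alone was called (0.10 per time step, limma adjusted p = 0.0353), against a background of 3.13% of all genes (1.61% higher and 1.52% lower). A second probe set of VAMP5 read 3.5 at time 0 and 4.0 at time 192, at background, and with the mean of both the call at time 192 ended (-0.62, adjusted p = 0.427).

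VAMP1, a synaptic VAMP, was called at time 48 alone, with 44.8, 42.4 and 47.1 against 66.6, 62.8 and 62.9 at time 0 (-0.52, SE 0.15, adjusted p = 0.0262). At time 192 its change was -0.23, although the arrays (50.5 to 60.4) still lay below those of time 0. VAMP2, the main synaptic VAMP, read 29.7, 17.4 and 36.3 at time 192, against 34.5, 30.1 and 43.9 at time 0, which overlap (-0.43, SE 0.37, not called). Other probe sets of VAMP2 gave 0.02 and 0.13 at time 192. The VAMPs of endosomes and lysosomes, VAMP3 (0.01, SE 0.14), VAMP4 (0.25, SE 0.17) and VAMP7 (0.11, SE 0.11), were not called at any time. VAMP8 was too dim to test.

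SNAP25, the neuronal SNAP, read 82.7, 191 and 109 at time 192, against 177, 233 and 191 at time 0. The groups overlapped through replicate 2, whose value was the highest of time 192. The change of -0.73 (SE 0.22) was called (limma adjusted p = 0.0195), while at times 4 to 96 it lay between -0.23 and 0.01 and was not. The call ended without replicate 1 (-0.55, adjusted p = 0.222; -0.47 without its array of time 192) or replicate 3 (-0.69, adjusted p = 0.0853), with equal array medians (-0.71, adjusted p = 0.0920), with the mean of the probe sets (-0.41, adjusted p = 0.0927) and with the probe set that lacks the suffixes _s_at and _x_at (-0.10, adjusted p = 0.851). The mock line read 142 at both times and up to 243 between them. SNAP23, its counterpart outside neurons, and SNAP29, a SNAP of autophagy and endosomes, were not called (-0.08, SE 0.09 and 0.09, SE 0.19 at time 192).

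The remaining markers of synaptic vesicles were dim in the MYCN line. SYP, which encodes synaptophysin, stayed between 1.0 and 8.0 in the MYCN line and between 1.6 and 6.5 in the mock line. SYN1, encoding synapsin I, a vesicle-clustering phosphoprotein, read 15.9, 13.0 and 24.1 at time 192, against 1.2, 7.2 and 9.7 at time 0. These do not overlap, but its mean was under the filter and it was not tested. SYN2 read 7.2 to 17.9 at time 192, against 5.6 to 18.4 at time 0 (0.26, SE 0.70), and 35.6 to 50.7 in the mock line.

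The lines also differed in level at time 0. MYCN itself then already read 84.0 ± 17.5 (SD, n = 3) in the MYCN line, against 2.3 in the mock array. The part of that signal in these differences was not tested. SYT4, a synaptotagmin of dense-core vesicles, read 0.7 to 21.3 over the 21 arrays of the MYCN line (median 9.5), against 1066 to 1949 over the 7 mock arrays (median 1179). At time 0 the MYCN line read 14.8, 8.7 and 11.9, and the mock array 1066, so the gap was present at the start of the course. SYT4 is read by a single probe set. In the mock line its highest value was that of time 192, 0.87 above time 0 on the log2 scale.

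SYT1 likewise read 75.0 to 215 in the MYCN line, against 585 to 700 in the mock line, SYT11 read 42.2 to 178 against 248 to 336, and SYT9 read 0.7 to 61.9 against 123 to 176. At time 0 the log2 differences, MYCN line minus mock, were -1.85 for SYT1, -1.03 for SYT11, -1.64 for SYT9 and -6.53 for SYT4. At time 192 they were -2.81 for SYT1 and -2.14 for SYT11; for SYT9 and SYT4 no size is given, since the MYCN line then read 0.7 to 6.2 and 1.7 to 10.5, under the filter. The difference of SYT4 at time 0 rests on MYCN-line arrays that read 8.7 to 14.8. SYN2 (2.2 to 25.8 against 35.6 to 50.7) and SNAP23 (385 to 510 against 545 to 658) were also lower in all arrays of the MYCN line. STX6 of the trans-Golgi network (263 to 370 against 201 to 244) and STX18 of the endoplasmic reticulum (150.0 to 239 against 113 to 128) were higher. These are 6 of 36 members below the mock line in all arrays and 2 above, against 9.3% and 8.11% of all tested genes. Of the 6, SYT4, SYN2 and SYT9 passed the filter through the mock arrays: their mean log2 signals over the MYCN line were 2.69, 3.45 and 3.32, under the 3.68 required. They had to differ between the lines to be tested, so nothing is read from the count.

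**Figure D3:**
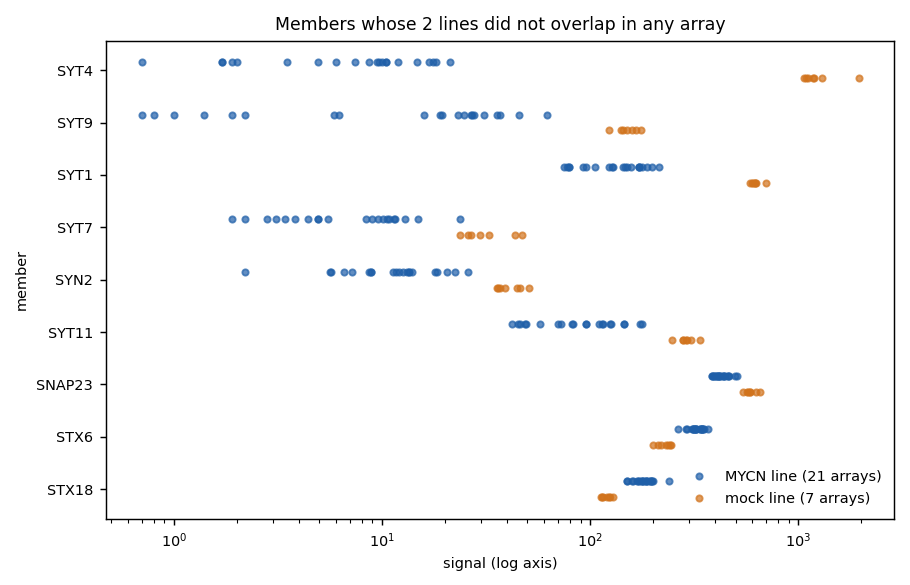
Signal (log axis) of the 9 members whose arrays did not overlap between the MYCN line (blue, 21 arrays) and the mock line (orange, 7 arrays), with all times shown together. SYT4 has the widest gap, 0.7 to 21.3 against 1066 to 1949; SYT7 is included although it was too dim to test, and its ranges (1.9 to 23.6 against 23.7 to 46.9) nearly touch.

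The plot of line levels mixes all times, and the part played by the origin of each line was not tested: with 1 mock array per time, the level at time 0 has no replicate in the mock line. Among the noradrenergic markers PHOX2A (1.2 to 15.4 against 582 to 1133) and GATA2 (67.8 to 226 against 513 to 646) were also lower in all MYCN-line arrays. So were GATA3 (231 to 458 against 752 to 880) and ISL1 (97.1 to 182 against 378 to 447), while HAND2, CHGA and CHGB overlapped. Of the mesenchymal markers TWIST1 was likewise lower (346.2 to 1000.5 against 1084 to 1682), and the others overlapped. The summed signal of the 9 measured markers was 690 to 752 at time 192 and 633 to 723 at time 0 in the MYCN line, and 2542 to 3241 in the mock line; TH and DBH were near 0 in both. Of the leukocyte list PTPRC read 1.0 to 36.2 against 198 to 262, with CD3E and CD14 at or under 15.9. The list's sum was 7.1 to 15.2 at time 192, 17.4 to 39.2 at time 0 and 213 to 275 in the mock line. PTPRC was also called lower within the MYCN line (-2.99 at time 192, limma adjusted p = 0.00274). Its MYCN-line median was 13.7, near the filter signal of 12.8, and the list's sum at time 192 lay near it too. The size of the fall of PTPRC is therefore uncertain. The part of these markers in the differences was not tested. Within replicate 3 of the MYCN line, whose bioD control shared the range of the mock arrays, SYT4 read 1.7 to 21.3, SYT1 79.0 to 198, SYT11 70.3 to 145 and SYT9 5.9 to 61.9.

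Whether the course of a member differed between the lines was tested as a difference in slope per time step. Of the 36 tested members 10 were called (27.8%), 9 lower and 1 higher in the MYCN line, against a background of 24% of all genes, 12.8% lower and 11.2% higher. SYT9 had the most negative difference (-0.91 per step, SE 0.22, limma adjusted p = 0.00365), with slopes of -0.85 (MYCN line) and 0.06 (mock line). SYT9, like SYT4 and SYN2, passed the filter on dim genes through the mock arrays. Nothing is therefore read from the call of SYT9 or from its place in this count. Its MYCN-line arrays at times 96 and 192 lay at or under 6.2, so the size of its slope is uncertain. Over the alternatives other than leaving out replicates or single arrays, the difference of SYT9 ran from -0.91 to -0.35. VAMP5 had the smallest p (-0.30, SE 0.04, adjusted p = 2.33e-06), with slopes of -0.20 and 0.10. SYT11 (-0.23, adjusted p = 0.00303) had slopes of -0.29 and -0.06, and SYT1 (-0.18, adjusted p = 0.00443) had slopes of -0.21 and -0.03. With the mean of the probe sets the differences of SYT11 (-0.11, adjusted p = 0.506) and VAMP5 (-0.20, adjusted p = 0.303) were not called. STX1A was the 1 member called upward (0.29, SE 0.06, adjusted p = 3.29e-04).

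STXBP5 (-0.13, adjusted p = 0.0146) was called too, but not without replicate 1 (-0.12, adjusted p = 0.0581). SYT12 (-0.19, adjusted p = 0.0470) was not called without replicate 1 (adjusted p = 0.0938) or replicate 3 (adjusted p = 0.0860), nor without any 1 mock array other than that of time 96 (adjusted p up to 0.328). The difference was also called for 3 syntaxins of inner membranes that were not called at any single time. These were STX5, the Golgi syntaxin (-0.13, SE 0.04, adjusted p = 0.0171), STX12 of recycling endosomes (-0.09, SE 0.02, adjusted p = 0.00877) and STX17 (-0.10, SE 0.04, adjusted p = 0.0406). In these the slope was slightly negative in the MYCN line (-0.06, -0.04 and -0.03) and positive in the mock line (0.07, 0.05 and 0.07). The call ended for STX5 without replicate 3 (adjusted p = 0.0522), for STX12 without replicate 2 (0.0555) and for STX17 without replicate 1 or 2 (0.06395 and 0.157). It ended for STX5, STX12 and STX17 without the mock array of time 192 (0.116, 0.0753 and 0.105). The call of STX17 also ended without the mock array of time 0, 4 or 96 (0.128, 0.0800 and 0.0924), and that of STX5 without the array of time 4 (0.0538). With equal array medians the calls of STX5 (adjusted p = 0.153), STX12 (0.3885), STX17 (0.297), STXBP5 (0.116) and SYT12 (0.138) ended, and 5 members stayed called. Within the arrays that shared a range of the bioD control (replicate 3 and the mock line) 7 members were called. The differences of SYT12 (-0.23, adjusted p = 0.0721), STX12 (-0.06) and STX17 (-0.05) were not called there. SNAP25 (-0.15, adjusted p = 0.0754), STX3 (0.13, adjusted p = 0.237) and SYT4 (-0.41, adjusted p = 0.190) were not shown to differ in trend.

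**Figure D4:**
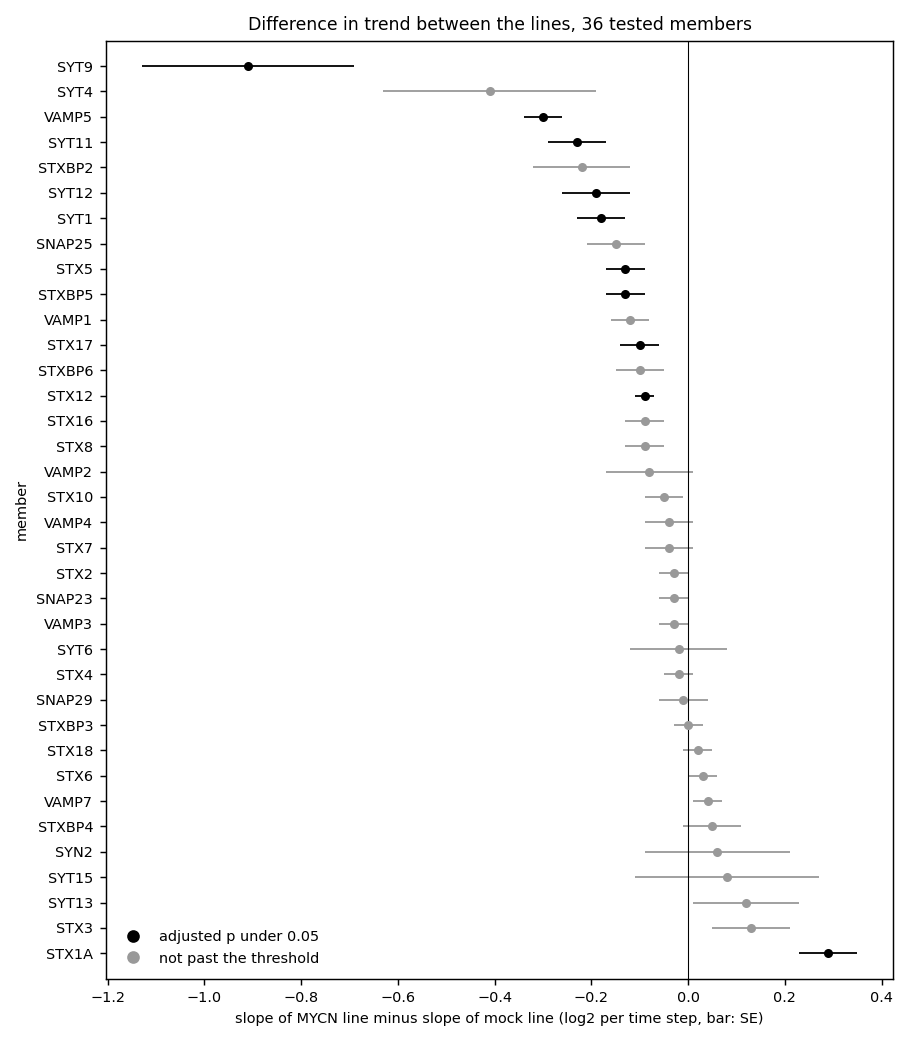
Slope of the MYCN line minus slope of the mock line (log2 per time step; bars, SE) for the 36 tested members, with black points for limma adjusted p under 0.05 and grey points otherwise. SYT9 (-0.91) lies farthest to the left and STX1A (0.29) farthest to the right. SYT9 passed the filter on dim genes through the mock arrays. Most members lie between -0.15 and 0.15.

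The plot of slope differences shows the fallers as a leftward tail and STX1A alone on the right among the called members. Other genes of vesicle fusion, taken from a list of 75 partners, were read in the same fit. Of these 73 had a probe set and 50 were tested, and at time 192 limma called 4 higher and 5 lower (18%, against a background of 25.8%), with a median change of -0.14. Of the vesicle proteins 1 of 5 fell, of the other SNAREs 2 of 13 fell and 1 rose, and of Sec1/Munc18 proteins and tethers 1 of 14 fell and 1 rose. Of the Rab and synaptotagmin-like genes 1 of 11 fell and 2 rose. Of the 4 SNARE disassembly genes NAPB had the largest change (-0.29, SE 0.19), and of the 3 tested priming genes DOC2A did (-0.56, SE 0.31); they were not called.

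SV2A, a glycoprotein of synaptic and dense-core vesicles that binds SYT1, read 151 to 278 at time 192, against 443 to 572 at time 0 (-1.15, SE 0.22, limma adjusted p = 7.74e-04), and the mock line read 489 against 491. RAB3D, a GTPase of secretory granules, read 12.8 to 41.6, against 66.2 to 93.6 (-1.62, SE 0.39, adjusted p = 0.00419). The Golgi SNARE gene BET1L (-0.59), the SEC22 family gene SEC22C (-0.59) and VPS45, the Sec1/Munc18 protein of endosomes (-0.48, adjusted p = 0.00414), also fell. SYTL4, which encodes granuphilin (0.80, SE 0.21), SCFD2, a Sec1 family gene (0.64, SE 0.15), ESYT2, a tether between endoplasmic reticulum and plasma membrane (0.62, SE 0.14), and GOSR1 of the Golgi (0.39, SE 0.10) rose. SYTL4 changed by 0.75 in the mock array of time 192 as well, whereas ESYT2 and GOSR1 were lower there (-0.25 and -0.16).

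**Figure D5:**
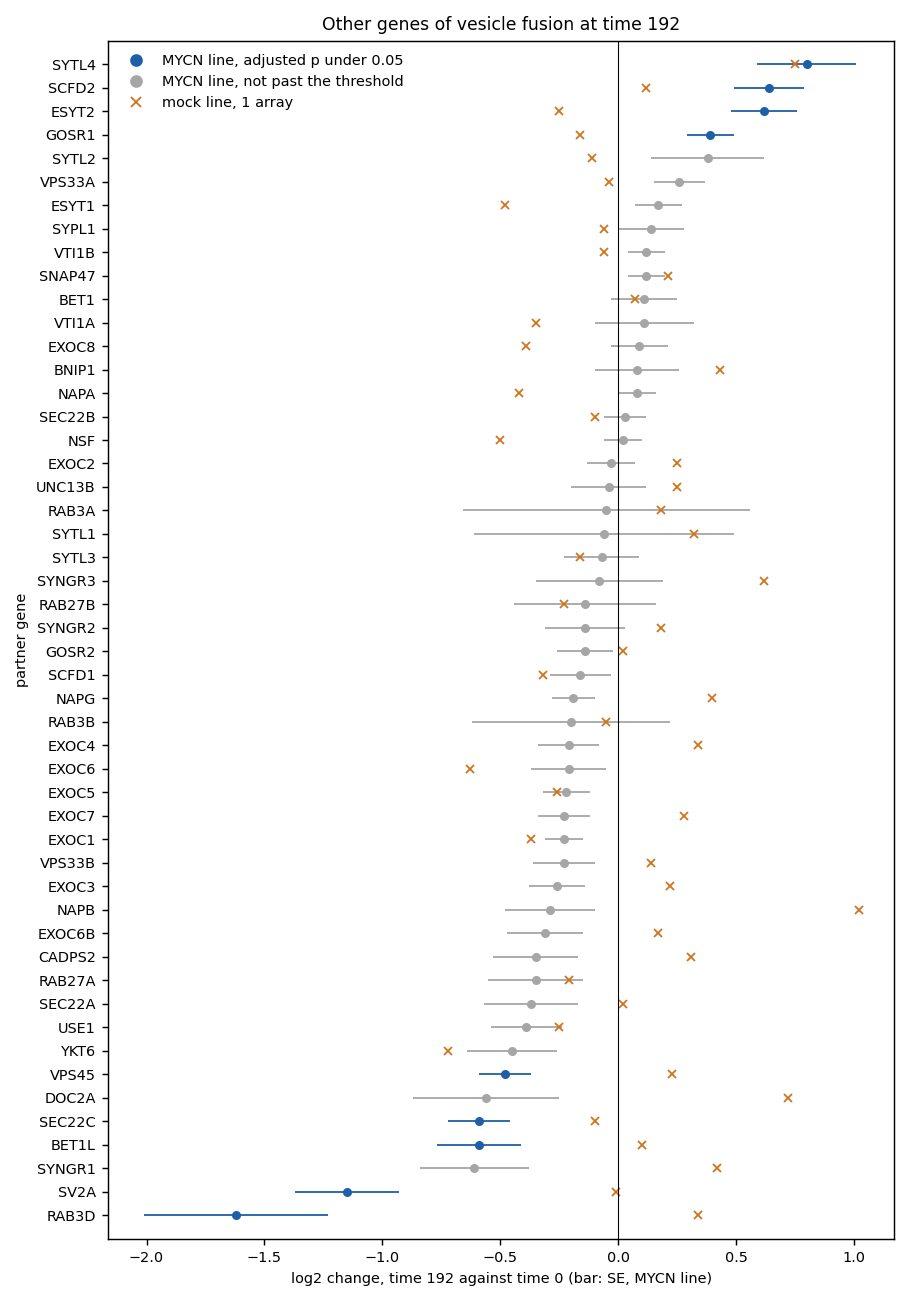
Log2 change at time 192 against time 0 of the 50 tested partner genes in the MYCN line (circles, bars SE; blue where limma adjusted p was under 0.05) and in the mock line (orange crosses, 1 array). RAB3D (-1.62) and SV2A (-1.15) lie lowest and SYTL4 (0.80) highest.

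The partner plot shows RAB3D and SV2A apart from the rest at its foot. The difference in trend between the lines was called for 11 of the 50 partners (background 24%), 8 lower and 3 higher in the MYCN line. Lower were RAB3D (-0.34 per step), NAPB (-0.18) and NAPG (-0.08), which encode SNAP adaptors of SNARE disassembly, SV2A (-0.17), VPS45 (-0.14) and the exocyst genes EXOC3, EXOC4 and EXOC7 (-0.09, -0.10 and -0.09), and higher were ESYT2 (0.16), SCFD2 (0.15) and ESYT1 (0.12).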

How the data were processed

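Total RNA of 28 samples of SK-N-AS derivatives was hybridised to single-colour Affymetrix arrays, with 4 µg labelled per array, per the labels' protocols. Each deposited value is a linear intensity of a probe set on an array, which the submitters' processing notes credit to MAS5 and GCOS (versions and genome build not given in the sources used here). In the deposited table the mean after trimming 2% at either end was 100 on all arrays. Nothing further was normalized.

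Gene names came from the platform annotation. Of 54675 probe sets, 41091 named a single gene, 1801 several and 11721 none, beside 62 controls left out; single-gene probe sets alone were used, the brightest by mean log2 signal for each of 19775 genes. Before log2 was taken, 91 values of 0 or less were raised to 0.1. Testing covered the 11865 genes whose mean log2 signal reached its 40th percentile (3.68, a signal of 12.8). Small signals vary greatly after log2, and levels of different probe sets are not compared.

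Tests used limma 3.58.1 in R 4.3.3 (lmFit, eBayes with trend), two-sided, with Benjamini-Hochberg adjustment over all tested genes and a threshold of 0.05. Times were compared with time 0 in a fit to the MYCN line alone (21 arrays, 14 residual degrees of freedom), with an F-test over 6 contrasts that called 8 members (background 25.4%). The difference in trend is the interaction of line and time step (0 to 6) over 28 arrays (24 degrees of freedom), and the mock trend a slope over 7 (5 degrees of freedom). The fits were tested on simulated data. The number of arrays limits the precision. Deviations of same-numbered arrays from their group means were correlated with those of time 0. The correlations were above 0.1 in all 3 replicates at times 4, 8 and 192 (lowest 0.188, 0.241 and 0.129). They were not at times 24, 48 and 96 (lowest -0.0608, 0.0549 and -0.0248). Arrays of unlike number were not compared, and by the bioD control replicate 3 lay in another set than replicates 1 and 2. These correlations therefore cannot decide whether the replicate numbers pair the arrays. The fits reported have no replicate block; the fit with the block is an alternative.

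Named were the members called at any time or for the difference in trend, the neuronal core (SNAP25, SYP, SYN1, SYN2, SYT1, STX1A, VAMP1, VAMP2) and partner genes called at time 192 with a log2 change of 0.58 or more in size; the other partner genes, and members given as uncalled values, were chosen after their values were seen. Members, lists and tests were chosen with earlier results of these data known. Promoter windows are RefSeq sequences. The alternatives are given in the closing section.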

Additional observations from a re-analysis of the deposited data

Results flagged for a closer look

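The difference in trend between the lines, MYCN line minus mock line in log2 per time step, passed limma's interaction test for 10 members, each by the test of the difference itself. It was -0.91 for SYT9, -0.30 for VAMP5, -0.23 for SYT11, -0.19 for SYT12, -0.18 for SYT1, -0.13 for STXBP5, -0.13 for STX5, -0.10 for STX17, -0.09 for STX12 and 0.29 for STX1A. SYT9 passed the filter on dim genes through the mock arrays, so nothing is read from its call. No group holds the 4 arrays needed for a test of single outlying arrays.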

How the results depend on the processing

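At times 4 and 8, 0 members were called under all alternatives run. With the mean of all probe sets of a gene, the members called were 0 at time 24, 2 at time 48, 3 at time 96, 4 at time 192 and 3 by the F-test. Without the _s_at and _x_at probe sets, which removes STX1A and other members, they were 1 at time 24, 5 at time 96, 5 at time 192 and 6 for the difference in trend. A stricter filter (60th percentile), which tests fewer members, gave 4 at time 48, 5 by the F-test and 6 for the difference in trend. Equal array medians gave 5 for the difference in trend, quantile normalization 2 for the mock trend, and the arrays of the compared times alone 2 at time 48. With the replicate number as a block, 4 members were called at time 24. At times 4, 8 and 192 the block gave 0, 0 and 10. STX4 was the added call at time 192, and no other named call changed there. Leaving out replicates or single arrays gave 0 to 2 members at time 24, 1 to 8 at time 48, 4 to 9 at time 96, 5 to 10 at time 192 and 3 to 7 by the F-test. For the difference in trend it gave 7 to 11, single mock arrays included, an alternative added after the data were seen. The change of STX4 at time 192 turned to 0.04 without the _s_at and _x_at probe sets, and that of SYN2 ran from -0.44 to 1.07 over the left-out arrays, neither called; the causes were not tested. STX1A and SYT1 kept their calls at time 192 under all alternatives that measured them. The signals of SYT9, SYT4, SYN1, SYN2 and SYP near or under 12.8 limit the size of their changes.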
